A study of Gallus gallus with 16 samples.

Results

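Guidance genes of the semaphorin, ephrin, slit and netrin systems were described in the epithelium and the pulp of growing chicken feathers. The genes were taken by symbol, as every gene column whose name is that of a semaphorin of classes 3 to 7, a plexin, NRP1 or NRP2, an EPHA or EPHB receptor, an ephrin, a slit, a ROBO, a netrin or an UNC5 receptor. Of 15512 gene columns present for both feather types, 57 matched. The column UNC50 shares only the first letters of its name with the UNC5 receptors and was kept out of the counts, which leaves 56 genes, 26 ligands and 30 receptors. The ligands were 6 class 3 semaphorins, 10 other semaphorins, 3 ephrins, 2 slits and 5 netrins. The receptors were 7 plexins, 2 neuropilins, 13 EPH receptors, 4 ROBO receptors and 4 UNC5 receptors.

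The feathers came from White leghorn chickens, roosters in the study's account, with no transgene or treatment in any group. Primary remiges, the large flight feathers of the wing, were cut into a lateral side with the narrow vane and a medial side with the wide vane. Dorsal plumes, with narrow vanes, and breast plumes, with wide vanes, were the body feathers. Epithelium and mesenchyme of the proximal follicles were separated, and the mesenchyme is called pulp here, as in the study. Each of the 8 groups of region and tissue had 2 libraries, batch I and batch II by their labels, and each library pooled 3 remige or 25 plume follicles, so no value belongs to a single follicle. The study calls the 2 batches biological replicates. The animals' age, and whether the batches came from different animals, are not given in the sources used here, so the p-values measure only the spread between these libraries.

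The 4 systems were first known from growing axons, which they steer, and all are also used outside the nervous system. Class 3 semaphorins are secreted and act through a neuropilin, which binds them, and a plexin, which carries the signal into the cell, while the other vertebrate semaphorins are mostly bound to the membrane and act on plexins directly. Ephrins sit on the cell surface and signal to EPH receptor kinases on the neighbouring cell, and the ephrin-bearing cell is signalled to in return, which in many tissues keeps neighbouring cell populations apart. Slits are secreted ligands of ROBO receptors and usually repel, and netrins attract through DCC or repel through UNC5 receptors. Several of the receptors are also known from blood vessels, where PLXND1, ROBO4, NRP1, NRP2 and UNC5B take part in vessel growth.

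The alignments per library, in units of 1000000, numbered 42.2 to 45.8 for the epithelium of remiges and 29.4 to 37.0 for their pulp. For plumes they numbered 32.6 to 37.7 and 23.4 to 26.1. Levels are given in TPM, the deposited RPKM rescaled to sum to 1000000 in each library, a scale on which genes of different length can be compared. The tissue labels were checked against marker lists. The 10 keratinocyte markers summed to 5358 to 8342 TPM in epithelium and to 1035 to 1898 TPM in pulp, so every pulp library held epithelial transcripts. The 7 fibroblast markers found summed to 146 to 264 TPM in epithelium and to 7976 to 16984 TPM in pulp, and the 9 endothelial markers to 5.54 to 11.7 TPM and 420.1 to 846 TPM. Of the Schwann cell and glia markers, PMP22 (83.9 to 108 TPM), S100B (3.71 to 5.24 TPM) and NGFR (1.74 to 5.36 TPM) were present in every remige pulp library and called higher in pulp than in epithelium, whereas SOX10 and GFAP were below 1 TPM. Of the 6 neuron markers found, 4 (ELAVL4, STMN2, SNAP25 and NEFM) were below 1 TPM there. GAP43, a growth cone protein, had a mean of 24.6 TPM in remige pulp and 0.233 TPM in plume pulp, and STMN2, a microtubule protein of neurons, 0.246 TPM and 28.7 TPM. In these bulk tissues, fewer cells of a type and less RNA per cell cannot be told apart.

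**Figure D1:**
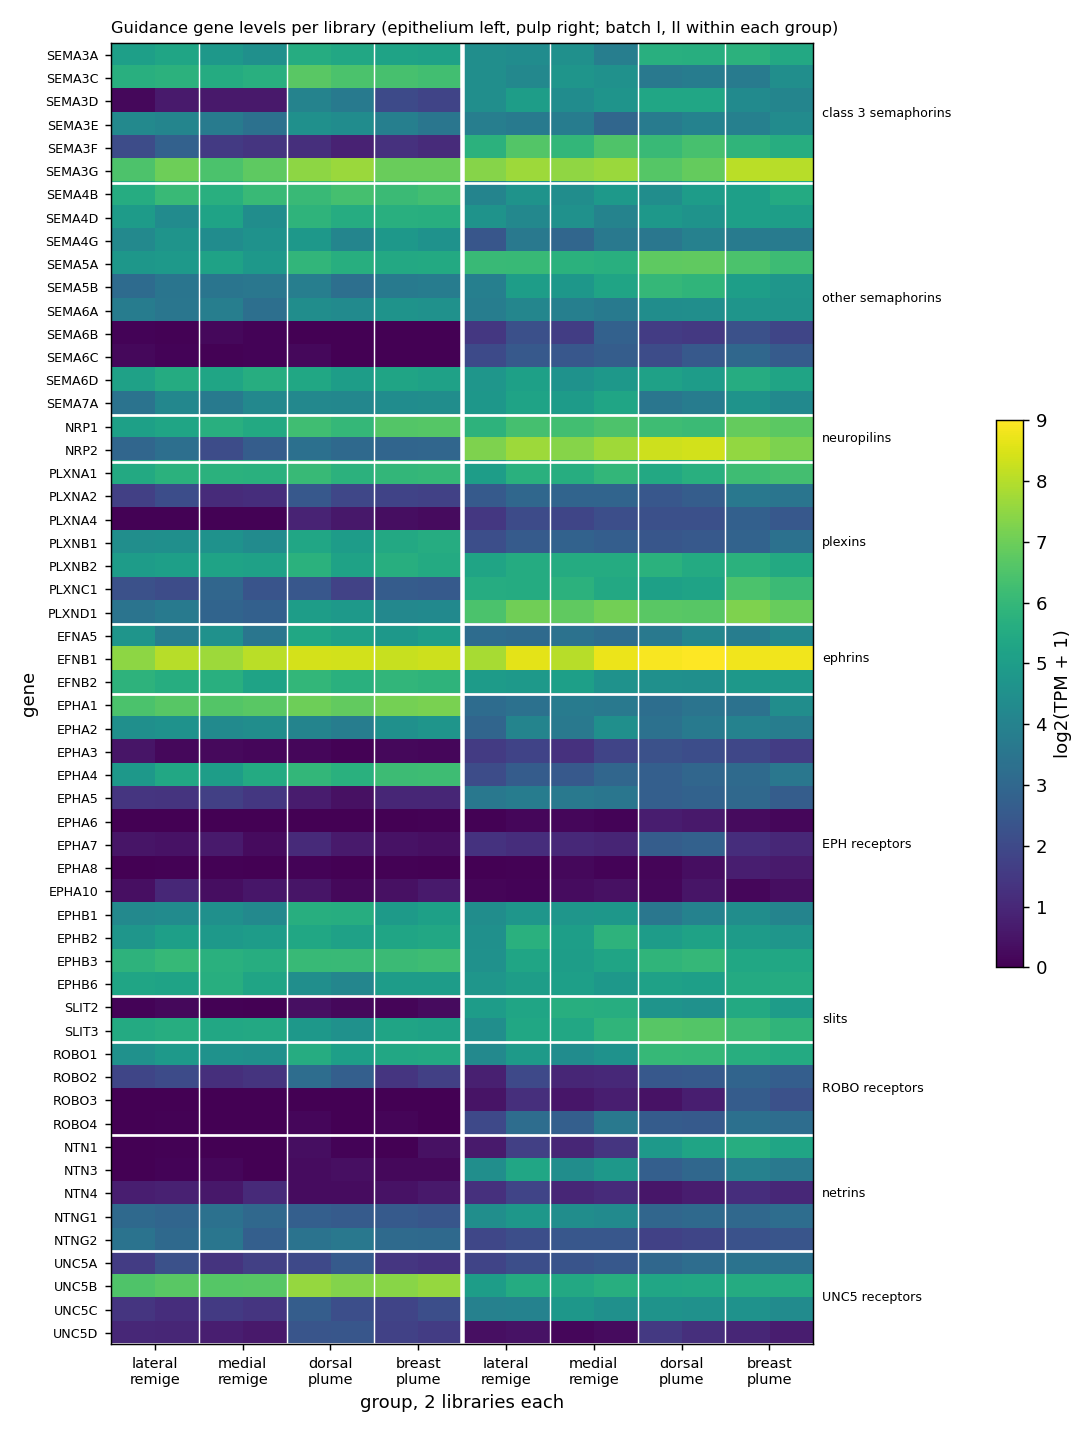
Level of the 56 guidance genes in each of the 16 libraries, as log2(TPM + 1) on a colour scale from 0 to 9, with genes in rows grouped by family and libraries in columns (epithelium on the left, pulp on the right, 2 libraries a group). EFNB1 is the brightest row in every library, and rows such as NRP2, SLIT2 and PLXND1 change between the left and the right block.

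EFNB1, a transmembrane ephrin of the B class, had the highest mean over the 16 libraries of any guidance gene, 342 TPM, and ranged from 175 to 599.7 TPM. In the other families the most abundant member was SEMA3G (158 TPM), SEMA5A (57.9 TPM), NRP2 (110.4 TPM), PLXND1 (66.7 TPM), EPHA1 (62.5 TPM), SLIT3 (48.9 TPM), ROBO1 (35.5 TPM), NTNG1 (10.4 TPM) and UNC5B (89.8 TPM), each as the mean over all libraries. NRP2 was high in the pulp only, whereas ROBO1 and SLIT3 were present in every library, at 18 to 64.7 TPM and at 20.8 to 101 TPM. The lowest levels were those of 3 EPH receptors. EPHA6 lay at 0 to 0.660 TPM, EPHA8 at 0 to 0.672 TPM and EPHA10 at 0.0585 to 0.985 TPM over the 16 libraries, and none reached the group mean of 1 TPM required for a test. ROBO3 (0 to 0.0218 TPM in epithelium, 0.403 to 1.33 TPM in pulp) and UNC5D (0.517 to 0.999 TPM and 0.126 to 0.342 TPM) also missed that minimum in remiges, which left 51 genes tested in remiges and 53 in plumes. The limma model was fitted to all genes that reached this minimum, and p-values were adjusted over all of them. Because a gene could pass through the group in which it is high, these counts do not stand for all 56 genes.

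Epithelium and pulp were compared first, separately in remiges and in plumes, with 4 libraries on each side. In remiges 14 of the 51 genes were higher in epithelium and 24 higher in pulp, at an adjusted p below 0.05. Over all 12954 genes tested, 18.7% were called higher in epithelium and 44.9% higher in pulp, 63.6% in all, and for the guidance genes the shares were 27.5%, 47.1% and 74.5%. In plumes 16 of the 53 genes were higher in epithelium and 29 higher in pulp, 84.9% in all. There 30.2% of 13246 genes were called higher in epithelium and 47% higher in pulp, 77.2% in all. The share of guidance genes called was thus above that of all genes in both feather types by a margin that was not tested. The median difference of all genes was -0.35 in remiges and -0.18 in plumes on the log2(TPM + 1) scale, with epithelium minus pulp as the direction, and quantile normalization moved it to 0.17 and 0.15. With that scaling remige epithelium had 21 guidance genes higher and 20 lower, beside 37.2% and 27.3% of all genes (64.4% in all). In plumes 21 were higher and 24 lower, beside 46.2% and 34.4% (80.7% in all). With the batch as a block, 16 were higher and 28 lower in remige epithelium, beside 24.3% and 53.6% of all genes (77.8% in all). Differences are therefore given as they are and also relative to the median gene. A direction that turns under quantile normalization is named with its gene.

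Of the 51 genes tested in both feather types, 11 were called higher in epithelium in both, 20 higher in pulp in both, and 2 in opposite directions. Over the 12634 genes tested in both, these shares were 17.4%, 39.1% and 1.35%. The epithelial genes were the ligands SEMA3C, SEMA4B, SEMA4G, EFNA5, EFNB2 and NTNG2, and the receptors PLXNB1, EPHA1, EPHA4, EPHB3 and UNC5B. The pulp genes were SEMA3D, SEMA3F, SEMA5A, SEMA5B, SEMA6B, SEMA6C, SLIT2, NTN1, NTN3 and NTNG1 on the ligand side and NRP2, PLXNA2, PLXNA4, PLXNC1, PLXND1, EPHA3, EPHA5, EPHA7, ROBO4 and UNC5C on the receptor side. Under quantile normalization EPHA7 in remiges (0.35) and NTNG1 in plumes (0.30) changed direction, and EPHA3 in remiges and PLXNA2 in both feather types were no longer called.

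**Figure D2:**
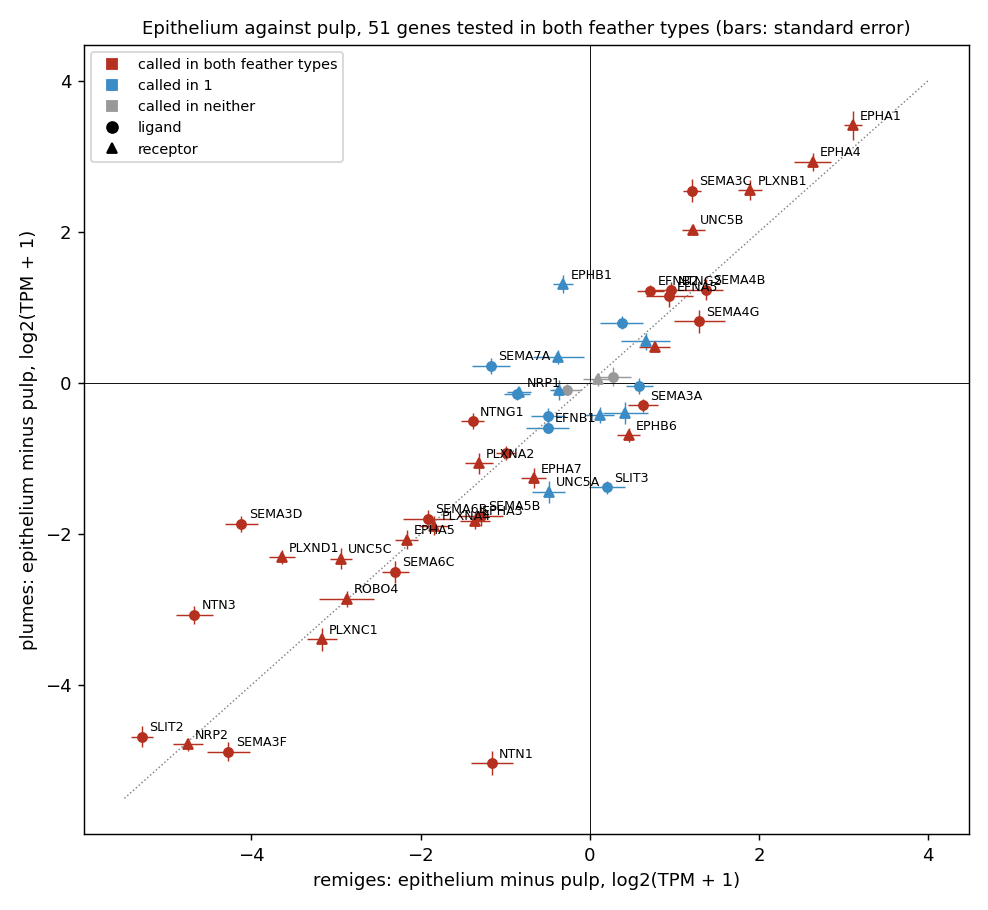
Difference between epithelium and pulp in remiges (horizontal axis) and in plumes (vertical axis), both on the log2(TPM + 1) scale, for the 51 genes tested in both; circles are ligands, triangles receptors, bars the standard error, red marks genes called in both feather types, blue in 1 and grey in neither, and the dotted line marks equal differences. EPHA1, EPHA4 and PLXNB1 lie at the upper right, NRP2, SEMA3F and SLIT2 at the lower left, and NTN1 far below the line, at -1.16 in remiges and -5.03 in plumes.

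Among the class 3 semaphorins, SEMA3C was the epithelial member. It measured 50.5 and 54.4 TPM in lateral and 45 and 50.7 TPM in medial remige epithelium, and 20.7 and 17.3 TPM in lateral and 24.8 and 22.2 TPM in medial pulp. In plumes the epithelium held 102 and 86.3 TPM in dorsal and 82.2 and 76.2 TPM in breast feathers. Plume pulp held 11.4 and 12.8 TPM in dorsal and 12.4 and 20.9 TPM in breast feathers. No pulp library reached the level of an epithelium library, and the log2 difference was 1.21 ± 0.11 (SE, 1.56 relative to the median gene, adjusted p = 7.79e-05) in remiges and 2.54 ± 0.15 (SE, 2.73 relative to the median gene, adjusted p = 4.15e-07) in plumes. SEMA3F, a ligand that acts through NRP2, had the reverse pattern. Its levels were 3.28 and 5.95 TPM in lateral and 1.87 and 1.65 TPM in medial remige epithelium. In pulp they were 54.4 and 95.9 TPM in lateral and 61.7 and 91.8 TPM in medial samples. In plumes epithelium was at 0.809 to 1.43 TPM and pulp at 47.7 to 81.9 TPM. The differences were -4.27 ± 0.25 (SE, -3.92 relative to the median gene, adjusted p = 1.15e-05) and -4.88 ± 0.13 (SE, -4.70 relative to the median gene, adjusted p = 4.15e-09). SEMA3D was likewise a pulp gene, with 0.137 to 0.563 TPM in remige epithelium and 19.9 to 31.4 TPM in pulp (-4.12 ± 0.19 SE, -3.77 relative to the median gene, adjusted p = 3.91e-06). The plume levels were 2.59 to 15.2 TPM and 16.1 to 39.3 TPM (-1.87 ± 0.11 SE, -1.68 relative to the median gene, adjusted p = 4.16e-07). SEMA3G, the most abundant of them, was higher in pulp in remiges (85.9 to 129 TPM against 163 to 205 TPM, -0.86 ± 0.15 SE, -0.51 relative to the median gene, adjusted p = 0.00239). In plumes its libraries overlapped (121 to 201 TPM and 97.1 to 269.7 TPM, -0.15 ± 0.075 SE, 0.031 relative to the median gene, adjusted p = 0.0945), the 2 dorsal pulp libraries being the lowest and the 2 breast pulp libraries the highest. SEMA3A, the ligand that collapses sensory growth cones through NRP1, was called in opposite directions. It was higher in remige epithelium (21.7 to 38.6 TPM against 13.3 to 22 TPM, 0.63 ± 0.18 SE, 0.98 relative to the median gene, adjusted p = 0.0181). It was lower in plume epithelium (34.3 to 46.6 TPM against 42.4 to 54.1 TPM, -0.30 ± 0.09 SE, -0.12 relative to the median gene, adjusted p = 0.0136). The libraries overlapped in both feather types. The remige call was lost without the batch II lateral epithelium, the batch II lateral pulp or the batch I medial epithelium library (adjusted p 0.00489 to 0.0605 over the 8 fits that left out 1 library). The plume call was lost without the batch II library of either epithelium (0.00324 to 0.0526) and under quantile normalization, and the difference between feather types was not tested.

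The membrane-bound and other semaphorins were divided by class. SEMA4B and SEMA4G, class 4 members, were epithelial. SEMA4B measured 46.1 to 68.3 TPM in remige epithelium and 15.9 to 27.8 TPM in pulp (1.37 ± 0.21 SE, 1.72 relative to the median gene, adjusted p = 0.00113). In plumes it measured 68.1 to 80.1 TPM and 20.2 to 44.2 TPM (1.23 ± 0.14 SE, 1.42 relative to the median gene, adjusted p = 4.5e-05). SEMA4G measured 17.9 to 24 TPM and 4.37 to 11.5 TPM in remiges (1.29, adjusted p = 0.00841) and 16.3 to 26.6 TPM and 11 to 14.3 TPM in plumes (0.81, adjusted p = 0.00113). SEMA4D, a ligand of PLXNB1, was higher in plume epithelium (0.80 ± 0.087 SE, 0.98 relative to the median gene, adjusted p = 3.04e-05), whereas in remiges its batches differed and it was called only in the fit with a batch block (0.38, adjusted p = 0.233 without and 0.0053 with the block). The class 5 and class 6 members that were called in both feather types were pulp genes. SEMA5A lay at 26.2 to 35.2 TPM in remige epithelium and 50.4 to 66.9 TPM in pulp (-0.995 ± 0.11 SE, -0.64 relative to the median gene, adjusted p = 0.000254). The plume levels were 42.4 to 60.4 TPM and 70.1 to 112 TPM (-0.93 ± 0.09 SE, -0.74 relative to the median gene, adjusted p = 1.45e-05). SEMA5B was lower in abundance, at 7.94 to 10.9 TPM and 13.8 to 37.1 TPM in remiges (-1.29) and 8.83 to 13.3 TPM and 25.5 to 62.7 TPM in plumes (-1.76). SEMA6B and SEMA6C were scarcely present in epithelium, where both stayed at or below 0.155 TPM. In pulp SEMA6B reached 1.72 to 5.86 TPM in remiges and 1.85 to 3.67 TPM in plumes, whose epithelium libraries list it at 0, and SEMA6C reached 3.01 to 5.3 TPM and 3.3 to 6.95 TPM. SEMA7A, which binds PLXNC1, was higher in remige pulp (-1.17 ± 0.23 SE, -0.82 relative to the median gene, adjusted p = 0.00354) and was not called in plumes (0.22, adjusted p = 0.0805). SEMA6D was higher in remige epithelium (0.59, adjusted p = 0.0148), a call lost without the batch II medial epithelium or the batch I medial pulp library (0.015 to 0.0528 over the 8 fits), and SEMA6A passed the test in neither feather type.

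Of the neuropilins, the receptors of class 3 semaphorins, NRP2 separated the tissues far more than NRP1. NRP2 measured 6.77 and 8.69 TPM in lateral and 3.31 and 5.24 TPM in medial remige epithelium. Its pulp levels were 152 and 202 TPM in lateral and 164 and 207 TPM in medial pulp. In plumes it measured 9.09 and 7.47 TPM in dorsal and 6.7 and 6.85 TPM in breast epithelium. Plume pulp was at 319 and 335 TPM in dorsal and 184 and 149.9 TPM in breast samples. All pulp libraries stood above all epithelium libraries, and the differences were -4.75 ± 0.18 (SE, -4.40 relative to the median gene, adjusted p = 1.54e-06) and -4.79 ± 0.089 (SE, -4.60 relative to the median gene, adjusted p = 1.93e-09). NRP1 was present in both tissues. It was higher in remige pulp (33.6 to 50.4 TPM against 54.9 to 87.6 TPM, -0.84 ± 0.14 SE, -0.49 relative to the median gene, adjusted p = 0.002). It overlapped in plumes (63.3 to 97.3 TPM and 69.4 to 116 TPM, -0.13 ± 0.071 SE, 0.057 relative to the median gene, adjusted p = 0.132).

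Of the 7 plexins, which transmit the semaphorin signal, 5 were higher in pulp in remiges and 4 in plumes, and PLXNB1 alone was higher in epithelium. PLXNB1, a symbol that RefSeq lists only as an alias of PLXNB3 in chicken, measured 20.9 and 21.1 TPM in lateral and 23 and 19.5 TPM in medial remige epithelium. Pulp was lower, at 3.43 and 5.07 TPM in lateral and 6.14 and 5.49 TPM in medial samples. In plumes epithelium was at 30.4 to 46.8 TPM and pulp at 4.25 to 9.25 TPM. The epithelium was higher in every library, by 1.89 ± 0.15 (SE, 2.24 relative to the median gene, adjusted p = 3.96e-05) and 2.55 ± 0.13 (SE, 2.73 relative to the median gene, adjusted p = 2.3e-07). PLXND1, the receptor that SEMA3E can bind without a neuropilin, measured 10.1 and 11.7 TPM in lateral and 6.55 and 5.85 TPM in medial remige epithelium. In pulp the levels were 86.5 and 130.5 TPM in lateral and 111 and 135 TPM in medial samples. Its plume levels were 17.3 to 31.3 TPM and 100.5 to 154 TPM, and the differences were -3.64 ± 0.16 (SE, -3.29 relative to the median gene, adjusted p = 2.85e-06) and -2.31 ± 0.09 (SE, -2.13 relative to the median gene, adjusted p = 3.41e-08). PLXNC1, the receptor of SEMA7A, was at 3.28 to 6.93 TPM in remige epithelium and 42 to 54.4 TPM in pulp (-3.17 ± 0.18 SE, -2.82 relative to the median gene, adjusted p = 8.73e-06). The plume levels were 2.4 to 5.08 TPM and 34 to 86.6 TPM (-3.39 ± 0.15 SE, -3.21 relative to the median gene, adjusted p = 7.69e-08). Both were among the largest differences of the receptor side. PLXNA4 stayed below 1 TPM in every epithelium library and lay at 1.73 to 3.51 TPM in remige pulp and 3.6 to 5.8 TPM in plume pulp. PLXNA2 was higher in pulp in both feather types (-1.31 and -1.07), though in plumes the libraries overlapped (2.31 to 4.51 TPM and 4.42 to 11.2 TPM) and under quantile normalization neither was called. PLXNB2 was called in remiges only (-0.37, adjusted p = 0.0171, held in 4 of 8 fits that left out 1 library, 0.0102 to 0.057, and lost without the batch I lateral epithelium, the batch II medial epithelium or either medial pulp library). PLXNA1 was not called in either (43.2 to 53.1 TPM and 31.1 to 60.9 TPM in remiges, 54.5 to 65.6 TPM and 41.6 to 77.8 TPM in plumes).

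SLIT2 had the largest tissue difference of the guidance genes in remiges. It measured 0.0709 and 0.133 TPM in lateral and 0.0333 and 0.0196 TPM in medial remige epithelium. In pulp it was at 30.2 and 38.3 TPM in lateral and 49.1 and 48.2 TPM in medial samples. In plumes epithelium was at 0.0761 to 0.290 TPM and pulp at 22.7 to 43.7 TPM. SLIT2 was thus near 0 in all 8 epithelium libraries and above 20 TPM in all 8 pulp libraries, with differences of -5.29 ± 0.13 (SE, -4.94 relative to the median gene, adjusted p = 3.85e-07) and -4.68 ± 0.14 (SE, -4.50 relative to the median gene, adjusted p = 6.58e-09), which the pseudocount makes smaller than the ratio of the levels. SLIT3, the other slit, was found in both tissues. It overlapped in remiges (40.8 to 47.5 TPM and 20.8 to 58.1 TPM, 0.20 ± 0.22 SE, 0.55 relative to the median gene, adjusted p = 0.445). It was higher in pulp in plumes (22.5 to 37 TPM and 58.4 to 101 TPM, -1.38 ± 0.087 SE, -1.20 relative to the median gene, adjusted p = 7.33e-07). The remige value turned with the libraries used, from 0.55 without both batch II pulp libraries (adjusted p = 0.0157) to -0.15 without both batch I pulp libraries. Its receptor ROBO1 was not called in remiges (21.9 to 28.5 TPM and 18 to 28.6 TPM, 0.12 ± 0.17 SE, 0.47 relative to the median gene, adjusted p = 0.576). It was higher in plume pulp (33.1 to 46.5 TPM and 44.4 to 64.7 TPM, -0.43 ± 0.10 SE, -0.24 relative to the median gene, adjusted p = 0.00471), with libraries that overlapped in both. Without both batch I pulp libraries the ROBO1 value in remiges was -0.099. ROBO2 was called lower in plume epithelium (-0.40, adjusted p = 0.0326), but its libraries overlapped, quantile normalization gave 0.50, and the call held in 3 of 8 fits that left out 1 library, those without the batch II breast epithelium, the batch II breast pulp or the batch I dorsal epithelium library. ROBO3, in other vertebrates a receptor of axons that cross the midline, was listed at 0 in every plume epithelium library and lay at 0.352 and 0.693 TPM in dorsal and 5.18 and 3.69 TPM in breast pulp. ROBO4, known from endothelial cells, was at or below 0.105 TPM in every epithelium library and at 2.96 to 11.4 TPM in remige pulp and 4.85 to 8.99 TPM in plume pulp. The endothelial list, which contains ROBO4, was higher in pulp for 9 of 9 genes tested in each feather type, CDH5, for one, at 176 TPM and 0.308 TPM in pulp and epithelium of remiges. Its part in the pulp levels of ROBO4, PLXND1, NRP2 and the others was not tested.

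The secreted netrins NTN1 and NTN3 were pulp genes, and their UNC5 receptors were divided between the tissues. NTN1, the best studied netrin, measured 0 and 0.0428 TPM in lateral and 0 and 0 TPM in medial remige epithelium. Pulp held 0.584 and 2.22 TPM in lateral and 0.956 and 1.6 TPM in medial samples, all low. Plume pulp measured 27.2 and 37.5 TPM in dorsal and 47.7 and 37.9 TPM in breast plumes, against 0.269 and 0.0637 TPM in dorsal and 0 and 0.323 TPM in breast plume epithelium. The tissues did not overlap in either feather type, and the differences were -1.16 ± 0.25 (SE, -0.81 relative to the median gene, adjusted p = 0.00566) and -5.03 ± 0.16 (SE, -4.85 relative to the median gene, adjusted p = 9.24e-09). NTN3, a second secreted netrin, measured 20.8 and 38.9 TPM in lateral and 20.4 and 26.6 TPM in medial remige pulp and 5.68 to 14.6 TPM in plume pulp, and did not exceed 0.28 TPM in any epithelium library. Its differences were -4.68 ± 0.22 (SE, -4.32 relative to the median gene, adjusted p = 3.98e-06) and -3.07 ± 0.12 (SE, -2.89 relative to the median gene, adjusted p = 3.63e-08). The netrin-G members, which are anchored to the membrane and bind NGL proteins and not UNC5 receptors, were divided. NTNG1 was higher in remige pulp (6.7 to 9.29 TPM against 19 to 25.9 TPM, -1.38 ± 0.13 SE, -1.03 relative to the median gene, adjusted p = 0.000129). The difference was smaller in plumes (4.33 to 5.68 TPM against 6.9 to 8.32 TPM, -0.51 ± 0.10 SE, -0.32 relative to the median gene, adjusted p = 0.00179, but 0.30 with quantile normalization). NTNG2 was higher in epithelium (5.62 to 10.7 TPM against 2.81 to 4.44 TPM in remiges, 0.96 ± 0.21 SE, 1.31 relative to the median gene, adjusted p = 0.0067). In plumes it was at 7.34 to 11 TPM against 2.38 to 4.12 TPM (1.23 ± 0.10 SE, 1.41 relative to the median gene, adjusted p = 4.89e-06). NTN4 stayed below 3 TPM throughout. With the batch as a block it was called higher in remige pulp (-0.49, adjusted p = 0.0241, 0.069 without the block), but quantile normalization gave 0.55 there. In plumes it was higher in pulp (-0.44) but not with quantile normalization, which gave 0.35.

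UNC5B was the most abundant UNC5 receptor and was epithelial in both feather types. It measured 90.5 and 102 TPM in lateral and 98.3 and 99.9 TPM in medial remige epithelium. In remige pulp the levels were 31 and 45.3 TPM in lateral and 42.5 and 48.7 TPM in medial samples. In plumes it measured 189.8 and 161 TPM in dorsal and 169.8 and 188 TPM in breast epithelium. In the pulp of plumes the levels were 38.9 and 40.9 TPM in dorsal and 45.9 and 45.2 TPM in breast samples. Every epithelium library was above every pulp library, by 1.22 ± 0.14 (SE, 1.57 relative to the median gene, adjusted p = 0.000252) and 2.03 ± 0.071 (SE, 2.21 relative to the median gene, adjusted p = 1.83e-08). UNC5C, in contrast, was a pulp gene, at 1.28 to 1.89 TPM in remige epithelium and 14.7 to 26.4 TPM in pulp (-2.94 ± 0.13 SE, -2.59 relative to the median gene, adjusted p = 3.39e-06). The plume levels were 2.59 to 5.25 TPM and 19.3 to 23.7 TPM (-2.33 ± 0.14 SE, -2.15 relative to the median gene, adjusted p = 5.03e-07). UNC5A was higher in plume pulp (1.48 to 4.88 TPM against 7.1 to 9.88 TPM, -1.44 ± 0.14 SE, -1.26 relative to the median gene, adjusted p = 1.6e-05), and in remiges it was called only in the fit with a batch block (-0.49, adjusted p = 0.0134 with and 0.0687 without), while quantile normalization gave 0.65 there. UNC5D, tested in plumes only, was higher in their epithelium (2.03 to 4.35 TPM against 0.649 to 1.82 TPM, 0.93 ± 0.12 SE, 1.11 relative to the median gene, adjusted p = 9e-05).

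**Figure D3:**
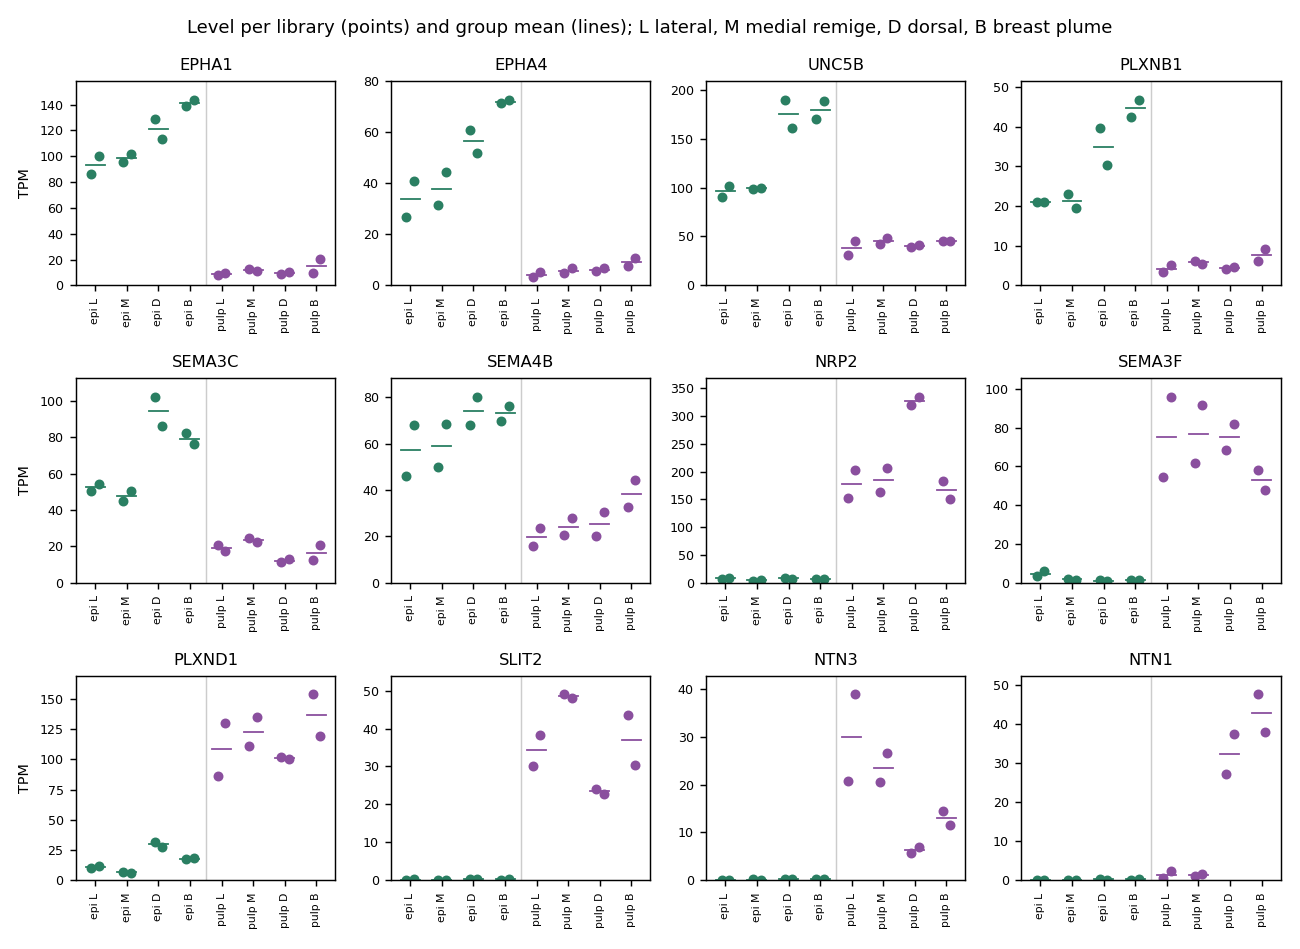
TPM of 12 guidance genes in each library (points) with the mean of each group of 2 libraries (lines), epithelium in green on the left and pulp in purple on the right of each panel, each axis starting at 0. EPHA1, EPHA4, UNC5B, PLXNB1, SEMA3C and SEMA4B are higher in all epithelium groups, NRP2, SEMA3F, PLXND1, SLIT2 and NTN3 in all pulp groups, and NTN1 is above 20 TPM only in the 4 plume pulp libraries.

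The receptors of the EPH family held the largest epithelial differences. EPHA1 measured 86.2 and 100.4 TPM in lateral and 95.8 and 102 TPM in medial remige epithelium. The pulp of remiges held 8.14 and 9.33 TPM in lateral and 12.4 and 11.5 TPM in medial samples. In plumes it measured 129 and 113 TPM in dorsal and 139 and 144 TPM in breast epithelium. The plume pulp held 8.61 and 10.1 TPM in dorsal and 9.42 and 20.4 TPM in breast samples. The differences were 3.11 ± 0.10 (SE, 3.46 relative to the median gene, adjusted p = 9.37e-07) and 3.41 ± 0.19 (SE, 3.59 relative to the median gene, adjusted p = 3.88e-07), and no library overlapped. EPHA4, which can bind ephrins of both classes, measured 26.9 and 40.9 TPM in lateral and 31.5 and 44.5 TPM in medial remige epithelium. Its levels in pulp were 3.28 and 5.18 TPM in lateral and 4.71 and 6.75 TPM in medial samples. In plumes epithelium was at 52 to 72.9 TPM and pulp at 5.55 to 10.8 TPM. It was higher in epithelium by 2.63 ± 0.22 (SE, 2.98 relative to the median gene, adjusted p = 6.31e-05) and 2.93 ± 0.12 (SE, 3.11 relative to the median gene, adjusted p = 4.26e-08). EPHB3 was present in both tissues and moderately higher in epithelium (48 to 64.9 TPM against 22.5 to 38.6 TPM in remiges, 0.76 ± 0.18 SE, 1.12 relative to the median gene, adjusted p = 0.00855). In plumes it was at 66.3 to 72 TPM against 39.9 to 62.1 TPM (0.47 ± 0.059 SE, 0.66 relative to the median gene, adjusted p = 7.39e-05). EPHB1 and EPHB2 were higher in plume epithelium (1.31 and 0.34, adjusted p = 9.34e-06 and 0.00625), though the EPHB2 libraries overlapped (34.9 to 41.1 TPM and 25.6 to 35.8 TPM). In remiges EPHB2 was not called, and EPHB1 was called only with the batch as a block, lower in epithelium (-0.32, adjusted p = 0.0321 with and 0.0601 without, but 0.11 with quantile normalization). EPHA2 was called in plumes (0.55) and in remiges only with the block (0.66, adjusted p = 0.0196 with and 0.0836 without). In both it was higher in epithelium, with libraries that overlapped.

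The EPHA receptors EPHA3, EPHA5 and EPHA7 were higher in pulp, all at low levels. EPHA5 measured 1.54 to 2.28 TPM in remige epithelium and 10.6 to 12.8 TPM in pulp (-2.17 ± 0.13 SE, -1.81 relative to the median gene, adjusted p = 1.28e-05). The plume levels were 0.312 to 0.950 TPM and 5.37 to 7.29 TPM (-2.08 ± 0.13 SE, -1.89 relative to the median gene, adjusted p = 6.9e-07). EPHA3 did not exceed 0.42 TPM in any epithelium library and lay at 1.45 to 2.6 TPM in remige pulp and 2.02 to 3.68 TPM in plume pulp. EPHA7 was higher in pulp (-0.66 in remiges and -1.26 in plumes), in remiges not with quantile normalization (0.35), and in plumes its tissues overlapped, with high values in dorsal pulp only. EPHB6, a family member without kinase activity in mammals, was higher in remige epithelium (36.4 to 49.2 TPM against 25.4 to 32.4 TPM, 0.46 ± 0.13 SE, 0.81 relative to the median gene, adjusted p = 0.0215). It was lower in plume epithelium (16.4 to 30.6 TPM against 32.9 to 45.7 TPM, -0.69 ± 0.086 SE, -0.51 relative to the median gene, adjusted p = 7.8e-05). The libraries did not overlap in either feather type. The remige call was lost without the batch I epithelium library of either side, the batch I lateral pulp or the batch II medial pulp library (0.0168 to 0.0729 over the 8 fits), and the difference between feather types was not tested.

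Of the 3 ephrins, EFNA5 and EFNB2 were higher in epithelium and EFNB1 in plume pulp. EFNB2 measured 55.3 and 47.7 TPM in lateral and 49.9 and 35.9 TPM in medial remige epithelium. In pulp it measured 29.4 and 28 TPM in lateral and 32.8 and 23 TPM in medial samples. In plumes epithelium was at 52 to 61.1 TPM and pulp at 21.3 to 27 TPM. The tissues did not overlap, and the differences were 0.71 ± 0.16 (SE, 1.06 relative to the median gene, adjusted p = 0.0071) and 1.22 ± 0.074 (SE, 1.40 relative to the median gene, adjusted p = 5.64e-07). EFNA5, a membrane-anchored ligand of EPHA receptors, measured 25.2 and 13.4 TPM in lateral and 22.5 and 10.6 TPM in medial remige epithelium, where batch I was higher on both sides, and 7.57 to 9.59 TPM in pulp. Its remige difference was 0.94 ± 0.28 (SE, 1.29 relative to the median gene, adjusted p = 0.0232) and held in 2 of 8 fits that left out 1 library, those without a batch II epithelium library (0.00839 to 0.0699). In plumes it was 1.15 ± 0.14 (SE, 1.33 relative to the median gene, adjusted p = 8.12e-05), at 26.8 to 40.3 TPM against 11.4 to 17.6 TPM. EFNB1 was higher in plume pulp (302 to 339.5 TPM against 443 to 599.7 TPM, -0.60 ± 0.072 SE, -0.41 relative to the median gene, adjusted p = 6.08e-05). In remiges batch II stood above batch I in every group, and EFNB1 was called only in the fit with a batch block (-0.50, adjusted p = 0.00121 with and 0.128 without).

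The places of ligands and receptors were set side by side for 32 known ligand and receptor pairs, as a description. In remiges both partners were called in 15 pairs, 3 with both in epithelium, 5 with both in pulp and 7 with the partners in opposite tissues. In plumes both were called in 22 pairs, 7 in epithelium, 7 in pulp and 8 in opposite tissues. Of all single genes 63.6% were called in remiges and 77.2% in plumes. No share was computed for pairs of unrelated genes, so these counts do not show an arrangement particular to ligands and receptors. In both feather types EFNB2 shared the epithelium with EPHA4 and EPHB3, and EFNA5 with EPHA4, while SEMA3F shared the pulp with NRP2, and NTN1 with UNC5C. The pairs in opposite tissues in both feather types were SEMA3C in epithelium with NRP2 in pulp, NTN1 in pulp with UNC5B in epithelium, and EFNA5 in epithelium with EPHA3, EPHA5 and EPHA7 in pulp. The EPHA3 and EPHA7 places in remiges, however, were not kept under quantile normalization. In plumes the epithelium also held SEMA4D with PLXNB1 and EFNB2 with EPHB1 and EPHB2, and the pulp SLIT2 and SLIT3 with ROBO1. The pair of SEMA4D and PLXNB1 was taken by symbol only. RefSeq lists that symbol in chicken only as an alias of PLXNB3, so the identity of this receptor is uncertain. Several pairs share a member, and the part of the epithelial transcripts in the pulp libraries in these levels was not tested.

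Further guidance genes came from lists made with earlier results of these data known. Of other guidance molecules and co-receptors, 4 of 15 tested were higher and 5 lower in remige epithelium (median -0.21), and 5 and 7 of 17 in plumes (median -0.066), beside medians of -0.35 and -0.18 over all genes. These were 60% and 70.6% called, against the 63.6% and 77.2% of all genes given above. The largest differences were those of the chemokine receptor CXCR4 and its ligand CXCL12 in remige pulp (-4.41 and -3.42, adjusted p = 5.53e-07 and 5.06e-06) and of DRAXIN and CXCR4 in plume pulp (-5.08 and -3.94, adjusted p = 8.09e-10 and 9.78e-09). DRAXIN, a secreted repellent of chick spinal cord axons, measured 1325 and 1175 TPM in breast and 630 and 627 TPM in dorsal plume pulp. It was called lower in dorsal pulp. Plume epithelium was at 22.8 to 27.2 TPM. Of signal transducers downstream of the receptors, 9 of 38 were higher and 21 lower in remige epithelium (median -0.46, 78.9% called), and 15 and 19 of 40 in plumes (median -0.099, 85% called). FARP1, a guanine nucleotide exchange factor, and CHN1, a Rac-inactivating protein used by EPHA4 in mouse axons, led in both feather types, FARP1 with -4.02 and -3.54 and CHN1 with -3.62 and -2.98 in remiges and plumes.

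The lateral and the medial side of the remige, which bear the narrow and the wide vane, were compared within each tissue. None of the 51 guidance genes was called in pulp or in epithelium, with or without the batch as a block, and none when each library was left out in turn. Over all genes, limma called 0% in pulp and 0.00772%, 1 gene, in epithelium. With the block it called 0.17% higher and 0.108% lower in pulp (0.278% in all), and 0.0386% higher and 0.00772% lower in epithelium (0.0463% in all). At an unadjusted p below 0.05 there were 4 guidance genes in pulp and 4 in epithelium, and 468 and 424 of all 12954 genes. The smallest p-values in pulp belonged to UNC5C, EPHA1 and SLIT2. UNC5C measured 14.7 and 14.8 TPM in lateral and 26.4 and 22 TPM in medial pulp (-0.67 ± 0.19 SE, adjusted p = 0.628, 0.171 with the block). SLIT2 measured 30.2 and 38.3 TPM and 49.1 and 48.2 TPM (-0.50, adjusted p = 1), and EPHA1 8.14 and 9.33 TPM and 12.4 and 11.5 TPM (-0.41, adjusted p = 1). All 3 were lower in both lateral libraries than in both medial ones. Of 10 keratinocyte markers, 8 were also lower in lateral pulp and 2 higher (median -0.38, beside -0.024 over all genes). In the limma fit 5 of them had an unadjusted p below 0.05 and 0 were called, with 1 called lower with the block. Of 9 endothelial markers 8 were lower (median -0.28), and of 7 fibroblast markers 2 (median 0.020). The part of these cell types in the 3 genes was not tested. In epithelium the smallest belonged to PLXNA2 (2.28 and 3.39 TPM lateral, 1.13 and 1.28 TPM medial, 0.78), PLXND1 (10.1 and 11.7 TPM and 6.55 and 5.85 TPM, 0.72) and NRP2 (6.77 and 8.69 TPM and 3.31 and 5.24 TPM, 0.74), each with an adjusted p of 1 and higher in both lateral libraries. The difference between the tissues was not called for any gene (0%, with 2 guidance genes and 451 of all genes at an unadjusted p below 0.05), and its smallest p-values were those of PLXND1 (-0.92), PLXNA2 (-0.91) and SEMA5A (0.51).

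Between dorsal and breast plumes, guidance genes were called in both tissues. In pulp 8 of the 53 genes were higher in dorsal plumes and 14 lower, 41.5% in all, beside 13% higher, 15.2% lower and 28.2% in all of the 13246 genes tested. With the batch as a block they were 9 and 18, beside 14.1% and 16.5% of all genes (30.6% in all), the added genes being ROBO1 among the higher and EFNB2, SEMA4B, SEMA4D and SEMA6D among the lower (adjusted p between 0.00823 and 0.0417). On the RPKM scale as deposited they were 9 and 22 of 52 genes, beside 14.2% and 20% of all genes. Without the batch I dorsal pulp library the calls fell to 5 and 6, and without either breast epithelium library, whose spread enters the shared estimate, to 7 and 9. Of the 7 plexins, 5 were lower in dorsal pulp and 0 higher.

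NRP2 was the most abundant gene among those that rose. It measured 319 and 335 TPM in dorsal and 184 and 149.9 TPM in breast pulp (0.97 ± 0.13 SE, adjusted p = 0.000726). SEMA3D, a ligand that can use NRP1, measured 39.3 and 39.1 TPM and 18.6 and 16.1 TPM (1.13 ± 0.15 SE, adjusted p = 0.000874), and SEMA5B 62.7 and 58.3 TPM and 32.4 and 25.5 TPM (1.05 ± 0.18 SE, adjusted p = 0.00356). For each of these, both dorsal libraries were far above both breast libraries. EPHA7 had the largest change, from 1.24 and 0.986 TPM in breast to 5.33 and 5.95 TPM in dorsal pulp (1.65 ± 0.18 SE, adjusted p = 0.000321). SLIT3 (101 and 96.5 TPM against 70.4 and 58.4 TPM, 0.62 ± 0.12 SE, adjusted p = 0.00656) and EPHB3 (58 and 62.1 TPM against 40.6 and 39.9 TPM, 0.57 ± 0.083 SE, adjusted p = 0.00138) changed less. SEMA5A and UNC5D were the others, at 0.49 and 0.53. NRP2, SEMA3D, EPHA7 and EPHB3 were called in all 8 fits that left out 1 library. SEMA5B (adjusted p = 0.0513) and SLIT3 (0.0646) were lost without the batch I dorsal pulp library, SEMA5A held in 5 of 8 fits (0.016 to 0.128) and UNC5D in 1 of 8 (0.048 to 0.189).

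SEMA3G, a class 3 semaphorin known from endothelial cells in mammals, was the most abundant gene that fell. It measured 97.1 and 117 TPM in dorsal and 269.7 and 263 TPM in breast pulp (-1.31 ± 0.11 SE, adjusted p = 5.98e-05). ROBO3 measured 0.352 and 0.693 TPM and 5.18 and 3.69 TPM (-1.83 ± 0.19 SE, adjusted p = 0.000209), and NTN3 5.68 and 6.96 TPM and 14.6 and 11.5 TPM (-0.94 ± 0.17 SE, adjusted p = 0.00426). In each case the dorsal libraries lay below the breast libraries. PLXNC1 (34 and 36.6 TPM against 86.6 and 68.9 TPM, -1.11 ± 0.21 SE, adjusted p = 0.00558) fell together with its ligand SEMA7A (10.7 and 12.7 TPM against 23.7 and 18.3 TPM, -0.78 ± 0.15 SE, adjusted p = 0.00511). PLXNA2 measured 4.42 and 5.24 TPM and 11.2 and 10.2 TPM (-1.01 ± 0.20 SE, adjusted p = 0.00632). The remaining genes called lower were PLXNA1, ROBO4, PLXNB1, NRP1, SLIT2, NTNG2, PLXND1 and EPHB6, between -0.70 and -0.41. SEMA3G, ROBO3, NTN3, PLXNA1, ROBO4 and NRP1 were called in all 8 fits that left out 1 library. Without the batch I dorsal pulp library PLXNA2 (adjusted p = 0.0653) and SEMA7A (0.0563) were lost, and PLXNC1 without that library or the batch I breast pulp library (up to 0.0664). The calls of SLIT2, NTNG2, PLXND1 and EPHB6 held in 2 of 8 and that of PLXNB1 in 3 of 8, with adjusted p between 0.033 and 0.0417 with all libraries and up to 0.202 with 1 left out.

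Some markers of other cell types differed between the same libraries. Of the fibroblast markers 2 of 7, DCN and TWIST1, were called higher in dorsal pulp and 0 lower, with a median of 0.12. The endothelial list, which contains the guidance gene ROBO4, summed to 420.1 and 430.0 TPM in dorsal pulp and to 763 and 571 TPM in breast pulp. Of its genes 5 of 9 were called lower (KDR, TEK, TIE1, VWF and ROBO4), with a median of -0.71 beside -0.055 over all genes. Of the keratinocyte markers 2 of 10, DSP and JUP, were called lower, and the list summed to 1035 and 1358 TPM in dorsal and 1039 and 1705 TPM in breast pulp. Of the mural markers 2 of 7 were lower, of the leukocyte markers 1 of 8, and of the neuron markers 1 of 4 was lower and 2 higher. Of all genes 13% were called higher and 15.2% lower. The keratinocyte and leukocyte shares called lower, 20% and 12.5%, were near the latter. The glial markers S100B (1.78 and 2.63 TPM against 6.98 and 7.19 TPM) and NGFR (1.01 and 1.21 TPM against 16.6 and 12.7 TPM) were also called lower, and PMP22 higher. The part of these cell types in the lower levels of SEMA3G, ROBO4, PLXND1 and the other guidance genes was not tested. Nor was the part of fibroblasts or other cell types in the higher levels of NRP2, SLIT3, SEMA3D, SEMA5B and EPHA7 tested.

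**Figure D4:**
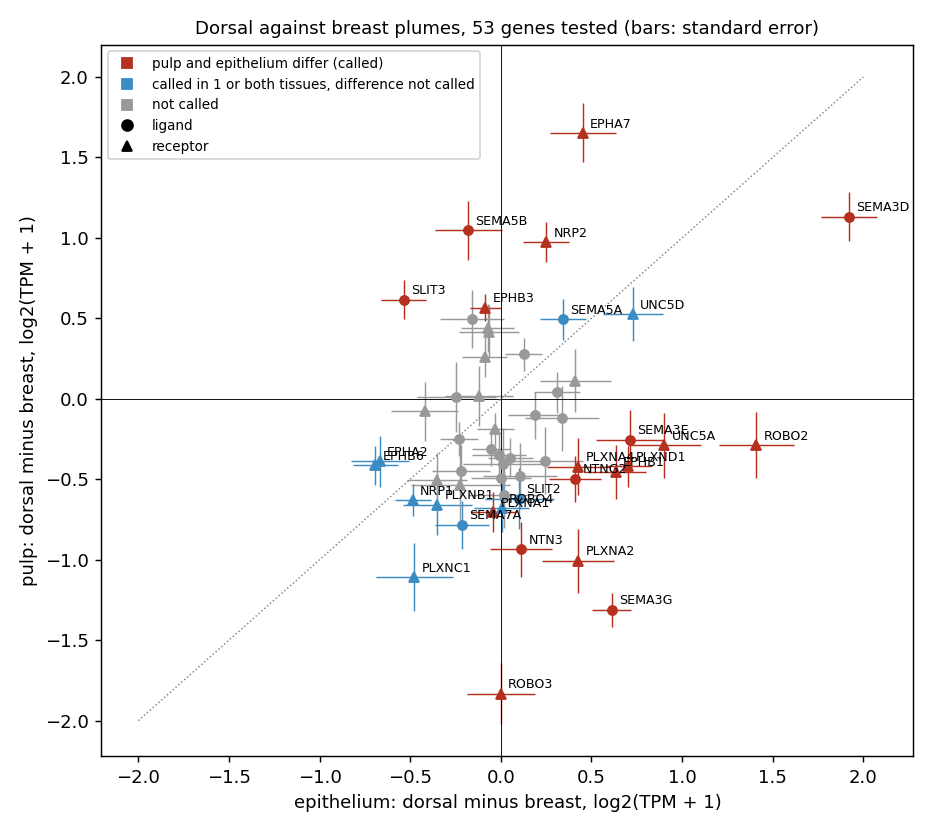
Difference between dorsal and breast plumes in epithelium (horizontal axis) and in pulp (vertical axis), on the log2(TPM + 1) scale, for the 53 genes tested; circles are ligands, triangles receptors, bars the standard error, and red marks genes whose difference between the tissues was called. SEMA3D is higher in dorsal plumes in both tissues, SEMA3G lies at 0.61 in epithelium and -1.31 in pulp, and SLIT3 at -0.54 and 0.62.

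In plume epithelium 8 of the 53 genes were higher in dorsal plumes and 4 lower, 22.6% in all, beside 8.55%, 9.1% and 17.6% of all genes. SEMA3D rose most. It measured 15.2 and 11.9 TPM in dorsal and 3.08 and 2.59 TPM in breast epithelium (1.92 ± 0.15 SE, adjusted p = 0.000166), with every dorsal library above every breast library, as in the pulp. ROBO2, a slit receptor, measured 8.25 and 5.59 TPM and 1.62 and 2.3 TPM (1.41 ± 0.21 SE, adjusted p = 0.00273). These 2 calls held in all 8 fits that left out 1 library. SEMA3G (175 and 201 TPM against 121 and 124 TPM, 0.61 ± 0.11 SE, adjusted p = 0.00606), PLXND1 (31.3 and 27.7 TPM against 17.3 and 18.1 TPM, 0.70 ± 0.13 SE, adjusted p = 0.00702) and its ligand SEMA3E (21.7 and 19.6 TPM against 13.9 and 10.6 TPM, 0.71 ± 0.19 SE, adjusted p = 0.0318) were also higher in dorsal epithelium. EPHB1 (49.3 and 48.2 TPM against 29 and 33.3 TPM, 0.63, adjusted p = 0.0346), UNC5A (2.95 and 4.88 TPM against 1.69 and 1.48 TPM, 0.90, adjusted p = 0.0173) and UNC5D (4.15 and 4.35 TPM against 2.32 and 2.03 TPM, 0.73, adjusted p = 0.0192) completed the group. The 4 lower genes were EPHB6 (20.8 and 16.4 TPM against 30.4 and 30.6 TPM, -0.69 ± 0.12 SE, adjusted p = 0.00635), EPHA2 (15.6 and 13 TPM against 21.7 and 24.8 TPM, -0.67 ± 0.16 SE, adjusted p = 0.0221), SLIT3 (27.1 and 22.5 TPM against 37 and 35.5 TPM, -0.54 ± 0.12 SE, adjusted p = 0.019) and NRP1 (74 and 63.3 TPM against 95.1 and 97.3 TPM, -0.49 ± 0.10 SE, adjusted p = 0.0122). The counts leaned on single libraries. Without either breast epithelium library 2 genes were called higher and 0 lower, without the batch I dorsal epithelium library 5 and 5, and without the batch II dorsal epithelium library 6 and 2. Among the markers in epithelium, 5 of 10 melanocyte genes were higher and 2 lower in dorsal plumes, 2 of 10 keratinocyte genes were higher, and the endothelial list, with 2 of 9 genes lower (EGFL7 and CLDN5), summed to 5.54 to 11.7 TPM over these 4 libraries.

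**Figure D5:**
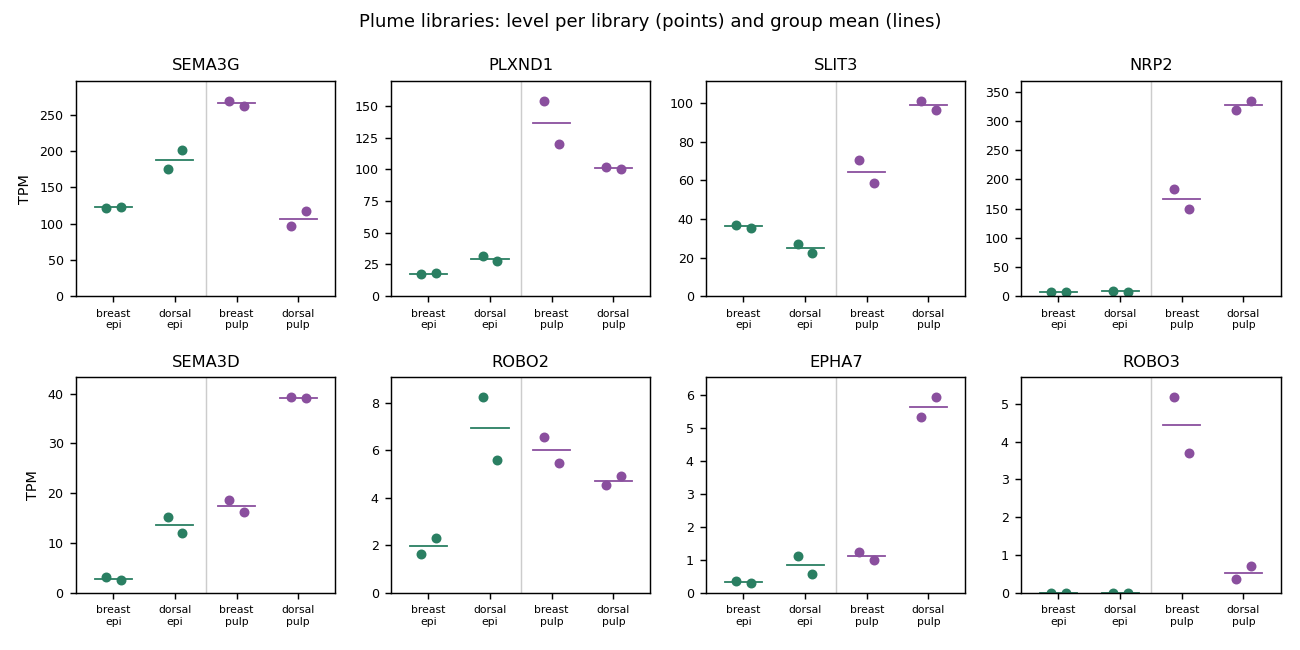
TPM of 8 guidance genes in the plume libraries (points, 2 a group) with the group mean (lines), epithelium in green and pulp in purple, each axis starting at 0. For SEMA3G and PLXND1 the dorsal libraries are above the breast libraries in epithelium and below them in pulp, SLIT3 shows the reverse, and EPHA7 and ROBO3 are each above 3 TPM in 1 pulp group only.

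The difference between the tissues was tested directly, as the dorsal minus breast difference in pulp less that in epithelium. It was called for 18 of the 53 guidance genes, 5 higher in pulp and 13 lower, 34% in all, beside 11%, 11.7% and 22.7% of all genes. SEMA3G, PLXND1 and SLIT3 were called in opposite directions in the tissues. SEMA3G rose in dorsal epithelium and fell in dorsal pulp, with a difference of -1.92 ± 0.15 (SE), adjusted p = 0.000123, and PLXND1 did the same with -1.12 ± 0.18 (SE), adjusted p = 0.00327. SLIT3 fell in dorsal epithelium and rose in dorsal pulp (1.15 ± 0.17 SE, adjusted p = 0.00243). These 3 differences were called in all 8 fits that left out 1 library. Of the single-tissue calls of these genes, only that of SEMA3G in pulp was. SEMA5B (1.23 ± 0.26 SE, adjusted p = 0.0112), EPHA7 (1.20 ± 0.26 SE, adjusted p = 0.012), NRP2 (0.72 ± 0.18 SE, adjusted p = 0.021) and EPHB3 (0.65 ± 0.12 SE, adjusted p = 0.00552) were on the other side, at 1.05, 1.65, 0.97 and 0.57 in pulp and -0.18, 0.45, 0.25 and -0.085 in epithelium. ROBO2 (-1.70 ± 0.29 SE, adjusted p = 0.0044) was at 1.41 in epithelium and -0.29 in pulp, UNC5A (-1.19 ± 0.29 SE, adjusted p = 0.0187) at 0.90 and -0.29, and PLXNA2 (-1.43 ± 0.28 SE, adjusted p = 0.00805) at 0.43 and -1.01. ROBO3 (-1.83 ± 0.27 SE, adjusted p = 0.00202) rests on the pulp alone, since the epithelium libraries list it at 0. SEMA4B was called only in the fit with a batch block (-0.62, adjusted p = 0.0339 with and 0.16 without). The calls of NRP2 and UNC5A held in 2 of the 8 fits, with adjusted p up to 0.0877 and 0.0876, and those of SEMA5B in 6 of 8 and EPHA7 in 7 of 8. Without the batch I dorsal pulp library 3 and 5 genes were called, and without either breast epithelium library 3 and 6. In this difference 4 of 9 endothelial, 4 of 10 keratinocyte and 2 of 7 mural markers were lower. The glial markers S100B and NGFR were lower as well. Of 10 melanocyte markers 4 were lower, among them SOX10, which is also on the glial list, and 1, SLC45A2, was higher. Of 7 fibroblast markers 1, TWIST1, was higher, and of 8 leukocyte markers 1 was lower. Of 4 neuron markers 2 were higher and 1 lower. Their part in the difference was not tested.

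Of the further guidance molecules, 7 of 17 were higher and 3 lower in dorsal pulp (median 0.16), and 8 and 1 of 17 in dorsal epithelium (median 0.50), beside medians of -0.055 and -0.0027 over all genes and, as above, calls of 13% and 15.2% of all genes in pulp and 8.55% and 9.1% in epithelium. Of the signal transducers 7 of 40 were higher and 6 lower in dorsal pulp (median -0.054), and 6 and 7 in dorsal epithelium (median -0.076).

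The narrow and the wide vane were also set against each other over both feather types, counting a gene where both narrow libraries lay on one side of both wide libraries in remiges and in plumes. Of 51 guidance genes tested in both, EPHA7 and SEMA5A (3.92%, beside 3.76% of 12634 genes) were higher in narrow-vane pulp, and NTNG2, PLXNB1, SLIT2 and UNC5A (7.84%, beside 6.07%) were lower. In narrow-vane epithelium NRP2, PLXNA2, PLXNA4, PLXND1, ROBO2, SEMA3A and SEMA3E were higher (13.7%, beside 5.58%) and EPHA5, NRP1 and PLXNC1 lower (5.88%, beside 7.34%). PLXNA4, which reached the minimum through the pulp, lay at 0.0266 to 0.0482 TPM in remige and 0.210 to 0.853 TPM in plume epithelium. EPHA5 lay at 0.312 to 0.950 TPM in plume epithelium. The order of such low values carries little weight. PLXND1, for example, was at 10.1 and 11.7 TPM in lateral and 6.55 and 5.85 TPM in medial remige epithelium, and at 31.3 and 27.7 TPM in dorsal and 17.3 and 18.1 TPM in breast epithelium. SLIT2 was at 30.2 and 38.3 TPM in lateral and 49.1 and 48.2 TPM in medial pulp, and at 24.1 and 22.7 TPM in dorsal and 43.7 and 30.4 TPM in breast pulp. None of these genes was called in remiges. By the sign of the log2 difference alone, without the rule on overlap, 8 of 10 keratinocyte markers were lower in narrow-vane pulp in each feather type (median -0.38 in each). The medians over all genes were -0.024 and -0.055. The part of epithelial transcripts in the pulp levels of PLXNB1 and NTNG2, both epithelial genes, was not tested.

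Between feather types the levels can only be set side by side, since the remige and the plume values were normalized separately. The library names, where they carry a sequencing lane, also give another lane for plumes than for remiges, so lane and feather type cannot be told apart. In pulp NTN1 was the only guidance gene of 53 whose mean level was at least 2 units higher in plumes on the log2(TPM + 1) scale, at 27.2 to 47.7 TPM against 0.584 to 2.22 TPM in remiges, and none was that much lower. Of all genes, 1.2% were that much higher and 1.01% that much lower. In epithelium SEMA3D was the only one of 42, at 2.59 to 15.2 TPM in plumes against 0.137 to 0.563 TPM in remiges, beside 0.742% of all genes higher and 0.367% lower. The order of the NTN1 levels was breast pulp (42.8 ± 6.88 TPM, SD, n = 2), dorsal pulp (32.3 ± 7.24 TPM), and then lateral and medial remige pulp (1.4 ± 1.16 and 1.28 ± 0.454 TPM), with no epithelium library above 0.323 TPM. The plume pulp groups did not pass the test between them (-0.40 ± 0.22 SE, adjusted p = 0.214), and the remige pulp groups overlapped. For SEMA3D the order was dorsal pulp (39.2 ± 0.191 TPM), lateral and medial remige pulp (26.1 ± 7.53 and 22.2 ± 3.29 TPM), breast pulp (17.4 ± 1.77 TPM), dorsal epithelium (13.6 ± 2.33 TPM), breast epithelium (2.84 ± 0.345 TPM) and remige epithelium (0.563 TPM at most). The lateral and medial remige pulp levels overlapped, and the other neighbours in this order from different feather types were not compared by a test.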

How the data were processed

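RNA from proximal follicles (4 µg, 50 bp single-end reads, Illumina HiSeq) gave 16 libraries. The authors' processing notes name TopHat2, Partek and the galGal4 build, with versions, annotation, strand and the handling of reads with several hits not given in the sources used here. The deposited values were RPKM per gene, in a remige and a plume table of 8 libraries each, normalized separately by the authors, with the count of alignments per library. Gene columns outside the members and lists (15619 and 15520) were used only in the rescaling, the fits over all genes and the background shares.

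RPKM were rescaled to TPM, which keeps no depth, so no count test was used. The scale used was log2(TPM + 1), which understates changes of low genes. A limma-trend model (limma 3.58.1, R 4.3.3, with Python 3.11.15, pandas 2.3.3 and matplotlib 3.10.9) with 4 group means and 4 residual degrees of freedom was fitted per table to genes with a group mean of at least 1 TPM, and Benjamini-Hochberg adjustment ran over all of them. Tests were two-sided, and the script was tested on simulated data. The members, lists and pairs were chosen with earlier results of these data known. Named were the highest member of each family, up to 3 per family and direction called in both feather types, those called in opposite directions, within a tissue all called or the 6 largest a direction (the 3 smallest p where 0 were called), and the low members, with others added after their values were seen. The labels give each library a batch, I or II, which the study calls biological replicates, and the batch block treats libraries of a batch as paired. Differences between batches correlated over genes at 0.446 to 0.805 between remige groups and 0.00429 to 0.117 between plume groups, and replicates at 0.956 to 0.995. The main model had no block, as the study names none. The study cut remige follicles into a lateral and a medial side and then parted the tissues. Remige libraries of a batch may therefore be paired, which every remige fit but that with the block leaves out. Alternatives were a batch block, other pseudocounts, filters and scalings, robust variance and leaving out libraries. The symbol PLXNB1 is listed in RefSeq (assembly GRCg7b) only as an alias of PLXNB3. No sequences or coordinates were used. Some marker genes are not reported here.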

Additional observations from a re-analysis of the deposited data

Results flagged for a closer look

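The dorsal minus breast difference of plumes was not the same in pulp and in epithelium, by limma's test of that difference with adjustment over all genes, for 18 guidance genes. On the log2(TPM + 1) scale, with pulp minus epithelium as the direction, the ligands SEMA5B (1.23) and SLIT3 (1.15) and the receptors EPHA7 (1.20), NRP2 (0.72) and EPHB3 (0.65) were higher. The ligands SEMA3G (-1.92), NTN3 (-1.05), SEMA3E (-0.97), NTNG2 (-0.91) and SEMA3D (-0.79) and the receptors ROBO3 (-1.83), ROBO2 (-1.70), PLXNA2 (-1.43), UNC5A (-1.19), PLXND1 (-1.12), EPHB1 (-1.09), PLXNA4 (-0.85) and PLXNA1 (-0.66) were lower. In plume epithelium ROBO3 was listed at 0, NTN3 lay at 0.153 to 0.280 TPM and PLXNA4 at 0.210 to 0.853 TPM. The ROBO3 and NTN3 values thus mostly repeat their pulp difference, and that of PLXNA4 rests partly on epithelium values near 0. SEMA3G, SLIT3, PLXND1, PLXNA2, ROBO2, ROBO3 and EPHB3 were called in all 8 fits that left out 1 library, EPHB1, NTN3 and NTNG2 in 5 of 8, PLXNA1, PLXNA4 and SEMA3E in 2 of 8, and SEMA3D in 1 of 8.

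EPHB6 was called in opposite directions between epithelium and pulp in the feather types, at 0.46 in remiges and -0.69 in plumes, with all epithelium libraries above all pulp libraries in remiges and below them in plumes. The difference between the feather types was not tested. Feather type cannot be told apart from the number of follicles pooled or from the sequencing lane in the library names.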

How the results depend on the processing

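Of 2077 values, under other settings, of the genes named by rule in each comparison, 1981 kept their direction and their side of the threshold, 84 lost the call, 6 gained one and 6 changed sign. The sign changes were those of EPHA7 in remiges (0.35) and NTNG1 in plumes (0.30) with quantile normalization, and in remiges, where neither was called, of ROBO1 (-0.099) and SLIT3 (-0.15) without both batch I pulp libraries and without the batch I lateral pulp library. With 1 library left out, ROBO1 ranged from -0.044 to 0.28 and SLIT3 from -0.024 to 0.43, the lowest being without that library. Of the genes named besides, quantile normalization also turned ROBO2 (0.50) and NTN4 (0.35) in plumes and UNC5A (0.65), NTN4 (0.55) and EPHB1 (0.11) in remiges, where these 3 were not called without a block, and the uncalled SEMA6A in both feather types and PLXNB2 and SEMA6D in plumes. The settings without both pulp libraries of a batch were chosen after seeing the data, as the batch I pulp libraries of remiges are named in another form than the rest. With RPKM in place of TPM, 22 guidance genes were lower in dorsal pulp, not 14, and the cause was not tested. With 1 library left out, 11 to 14 genes were higher and 23 to 27 lower in remige epithelium, 16 to 17 and 28 to 30 in plume epithelium, 5 to 8 and 6 to 16 in dorsal pulp, 2 to 8 and 0 to 5 in dorsal epithelium, 3 to 7 and 5 to 15 in the difference between the tissues, and 0 and 0 in each remige side comparison. The group with 1 library left was assumed to vary like the others. With the batch as a block, 16 and 28 genes were called in remige epithelium and 9 and 18 in dorsal pulp, and the calls it changed are named with their genes above. Depth cannot be weighed gene by gene, since TPM hold no counts, and differences of low genes are the least certain.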
